A study of Homo sapiens with 8 samples.

Results

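The sgRNAs against splicing factors were all those whose target gene was on a list of 16 splicing genes, in a pooled CRISPR knockout screen of Taxol-resistant breast cancer cells. The tables held 6 of these genes, PRPF19, PRPF31, SF3B1, SF3B3, SRSF1 and SRSF3, each with 10 sgRNAs, so that 60 of 7855 sgRNAs and 6 of 779 tested genes were described. The other listed genes, SLU7, SRSF6, SRSF10, SRSF12, U2AF2, SFSWAP, PQBP1, THRAP3, MAGOH and HNRNPL, were not analysed here. Each sgRNA is called by the last number of its library name.

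The screen was run in T1-160, a derivative of the triple-negative line SUM159PT that was selected for growth in Taxol, a drug that stabilises microtubules. All cells carried Cas9 and EPIKOL, a lentiviral library of sgRNAs against chromatin regulators, and had been selected with 5 μg/ml puromycin for 4 days in 20 μM verapamil, which blocks drug efflux pumps. Taxol-treated cells (replicates 1, 2 and 3) were then kept in 160 nM Taxol, and DMSO-treated cells (replicates 1, 2 and 3) in vehicle, until 16 population doublings. The last group (AP, replicates 1 and 3) was collected right after puromycin and received neither. A single resistant line was screened, and the labels do not say whether the replicates were infected or cultured separately. P-values from tests between libraries therefore measure only the spread between these samples, which may be technical. Gene p-values from the ranking of sgRNAs measure instead how the sgRNAs of a gene crowd together, taking these as independent.

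Splicing removes introns from precursor mRNA and is carried out by the spliceosome, which assembles anew on each intron from small nuclear ribonucleoproteins (snRNPs). SF3B1 and SF3B3 belong to the SF3b part of the U2 snRNP, which recognises the branch point, and SF3B3 is also a subunit of the SAGA chromatin complex. PRPF31 joins the U4/U6 snRNP to U5, and PRPF19 is the ubiquitin ligase of the complex that activates the assembled spliceosome. SRSF1 and SRSF3 are SR proteins, which bind exonic sequences and recruit the splicing machinery. Most dividing cells need the core spliceosome, and in a pooled screen an sgRNA whose knockout slows growth becomes rarer among the cells. How efficiently each sgRNA cut was not measured, so a small change can reflect poor cutting or little need for the gene, and these cannot be told apart.

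The values were normalized counts, which are reads of an sgRNA scaled between libraries, and each of the 3 comparisons had its own table with its own scaling. The reads recovered from these values came to 2045984 to 11771417 per library. The median splicing factor sgRNA had 279, 97 and 78 reads in Taxol 1, 2 and 3, 219, 327.5 and 163 reads in DMSO 1, 2 and 3, and 507 and 306.5 reads in AP 1 and AP 3. The lowest had 14 reads, in Taxol 3, so counting error was largest in the Taxol 2 and Taxol 3 libraries. In the table of Taxol and DMSO, libraries of the same group correlated across sgRNAs at 0.610 to 0.688 and libraries of different groups at 0.589 to 0.725.

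Splicing factor sgRNAs were already scarce after puromycin selection. In the table of DMSO and AP, their median normalized count was 343 in AP 1 and 364 in AP 3, against 557 and 546 over all sgRNAs and 515 and 653 over the 80 non-targeting sgRNAs. By the mean AP level, 26 of the 60 lay among the lowest 25% of all sgRNAs and 42 among the lowest 50%, shares that hold 25% and 50% of all sgRNAs by construction. Of the 80 non-targeting sgRNAs, 10 lay among the lowest 25% and 36 among the lowest 50%. The scarcity was unevenly spread over the genes. All 10 SRSF3 sgRNAs lay among the lowest 50% and 6 among the lowest 25%. PRPF31 had 7 among the lowest 25%, and SF3B1 and SRSF1 had 4 each. SF3B3 had 3 and PRPF19 had 2, with 5 of the PRPF19 sgRNAs among the lowest 50%. The abundance of each sgRNA in the virus pool was not analysed here, so a low starting amount and loss before the AP collection cannot be told apart.

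As a share of all normalized counts, the 60 sgRNAs held 0.434%, 0.441% and 0.320% in Taxol 1, 2 and 3, 0.591%, 0.422% and 0.411% in DMSO 1, 2 and 3, and 0.549% and 0.516% in AP 1 and AP 3. All 8 shares lay below 0.764%, the part of the sgRNAs that they make up. The DMSO 1 share was the highest, and that library held 11442 reads of a single sgRNA, SRSF1 7466, of 4904508 reads in all.

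The comparison of DMSO with AP asked which knockouts were lost or gained during growth without drug. PRPF19 sgRNAs were depleted. The mean log2(normalized count + 1) over the 10 PRPF19 sgRNAs was 7.89, 8.42 and 8.09 in DMSO 1, 2 and 3, against 9.09 and 8.82 in AP 1 and AP 3. The DMSO libraries all lay below both AP libraries. The log2 fold change was -0.82 ± 0.23 (SE), a level of 0.567 of that in AP, and 8 of 10 sgRNAs were lower. Robust rank aggregation (RRA), which asks whether the sgRNAs of a gene crowd at one end of the ranking of all sgRNAs, gave an exact one-sided p of 0.000312 and a Benjamini-Hochberg adjusted p of 0.0221 over 779 genes. PRPF19 was 11th of the 779 genes by this p and 16th by fold change. Limma on the gene mean sets the difference against the spread between libraries, and it gave an adjusted p of 0.0690. Over all genes RRA called 16 depleted at an adjusted p under 0.05, and 13, 19 and 10 without DMSO 1, 2 and 3. The PRPF19 call by RRA was lost without DMSO 1 (adjusted p = 0.145) or DMSO 3 (0.126), and was kept without DMSO 2 (0.000630). It was also lost without AP 1 or AP 3, where only 1 AP library is left.

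Single PRPF19 sgRNAs differed in size and direction. PRPF19 7487 had 85.9, 124 and 77.7 normalized counts in DMSO 1, 2 and 3, against 239 and 395 in AP 1 and AP 3 (log2 fold change -1.70 ± 0.68 SE). PRPF19 7490, the most abundant of these sgRNAs in the AP libraries by their mean, had 266, 365 and 510.4 in the DMSO libraries, against 1345 and 862 in the AP libraries (-1.55 ± 0.63 SE). For 7486, 7487, 7489 and 7490 every DMSO library lay below both AP libraries. PRPF19 7484 went against these, with 2753, 795 and 1033 in the DMSO libraries and 706 and 1010.5 in the AP libraries (0.64 ± 0.65 SE). Limma gave unadjusted p-values of 0.0217 for 7487 and 0.0248 for 7490, and both adjusted to 0.727 over 7855 sgRNAs.

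Across the 6 genes, RRA called 1 depleted at an adjusted p under 0.05, PRPF19, against 2.05% of all genes, and 0 enriched, against 0.128%. At an unadjusted p under 0.05 it called 3 depleted, PRPF19, SRSF3 and SRSF1, against 11.8% of all genes, and 0 enriched, against 8.09%. Limma on gene means called 0 lower at an adjusted p under 0.05 (1.41% of all genes) and 2 at an unadjusted p under 0.05, PRPF19 and SRSF3 (8.73%). In 2 genes, PRPF19 and SRSF3, every DMSO library lay below both AP libraries (14.1% of all genes), and in 0 above both (29.3%). All 6 log2 fold changes were negative, as were those of 36.7% of all genes. The median of the 6 was -0.22, against 0.15 over all genes, and the median of the 60 sgRNAs was -0.40, against 0.13 over all sgRNAs and 0.43 over the non-targeting sgRNAs. The sign and size of a log2 fold change depend on the scaling, which moves all genes together. Differences from the median gene therefore change little. Centring on the non-targeting sgRNAs moved the median gene to -0.16 and PRPF19 to -1.13, and scaling to the library total moved them to -0.24 and -1.20.

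By RRA p, SRSF3 and SRSF1 followed PRPF19 among the 6 genes, whereas by fold change SRSF3 and SF3B1 did. The mean over the SRSF3 sgRNAs was 7.83, 7.32 and 7.10 in DMSO 1, 2 and 3, against 7.97 and 7.96 in AP 1 and AP 3 on the log2 scale. The DMSO libraries all lay below the AP libraries, by little for DMSO 1. The log2 fold change was -0.55 ± 0.26 (SE), with 9 of 10 sgRNAs lower, and neither the RRA adjusted p of 0.244 nor the limma adjusted p of 0.225 passed. SRSF3 5993 and 5997 had the most negative log2 fold changes of these sgRNAs, at -1.29 ± 0.71 (SE) and -1.18 ± 0.67 (SE). The SD between the log2 fold changes of its sgRNAs was 0.45, against a median of 0.65 over all genes. Their standard errors were 0.64 to 0.89, so this SD does not show that they acted alike.

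SRSF1 instead showed a wide split among sgRNAs, around a log2 fold change smaller than its SE in the deposited scaling. The gene mean was 8.34, 8.57 and 8.32 in DMSO 1, 2 and 3, against 8.64 and 8.47 in AP 1 and AP 3, and the groups overlapped. The log2 fold change was -0.14 ± 0.22 (SE), and the RRA p of 0.0327 for depletion adjusted to 0.326. The SD between its sgRNAs was 1.20, the 11th highest of 779 genes, and 5 sgRNAs were lower and 5 higher. SRSF1 7465 had 62.3, 99.98 and 63.4 normalized counts in DMSO 1, 2 and 3, against 293 and 210.2 in AP 1 and AP 3 (log2 fold change -1.74 ± 0.68 SE). SRSF1 7463, 7464 and 7468 were likewise below both AP libraries in every DMSO library, with log2 fold changes of -1.29, -0.96 and -1.40. SRSF1 7466 was above them in every one, with 14247, 2018 and 783 normalized counts in DMSO 1, 2 and 3, against 667 and 639 in AP 1 and AP 3 (2.11 ± 0.85 SE). That sgRNA was by far the highest in DMSO 1, and the cause of its rise was not tested.

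The U2 and U4/U6 snRNP genes did not pass in the comparison of DMSO with AP. SF3B1 averaged 8.20, 8.14 and 8.64 in DMSO 1, 2 and 3, against 8.66 and 8.60 in AP 1 and AP 3, with DMSO 3 between the AP libraries. The log2 fold change was -0.30 ± 0.23 (SE), with 7 of 10 sgRNAs lower, and the RRA p for depletion was 0.0997. SF3B3, the other SF3b gene, ranged over 8.38 to 8.78 in the DMSO libraries and 8.29 to 9.04 in the AP libraries (-0.09 ± 0.25 SE, 5 of 10 lower). PRPF31 ranged over 7.77 to 8.13 in the DMSO libraries and 7.66 to 8.30 in the AP libraries (-0.09 ± 0.25 SE, 7 of 10 lower). Both genes were lower in AP 1 than in every DMSO library and higher in AP 3 than in every DMSO library, so that their direction rested on which AP library was used. Without AP 3 the log2 fold changes were 0.29 for SF3B3 and 0.24 for PRPF31.

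PRPF31 was also split among its sgRNAs, with an SD of 1.06 (37th highest of 779 genes). PRPF31 4971 had 291, 2212 and 211 normalized counts in DMSO 1, 2 and 3, against 93.3 and 204 in AP 1 and AP 3 (log2 fold change 1.89 ± 0.86 SE). PRPF31 4974 had 296, 191 and 204 in the DMSO libraries, against 31.1 and 176 in the AP libraries (1.59 ± 0.77 SE). Both were among the rarest at the start, and 4974 had 46 reads in AP 1. PRPF31 4977 went the other way, with 99.6, 141 and 113 in the DMSO libraries, against 216 and 375 in the AP libraries (-1.28 ± 0.67 SE).

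Over single sgRNAs in the comparison of DMSO with AP, 41 of 60 had a negative log2 fold change, against 43.2% of all sgRNAs. In 16 every DMSO library lay below both AP libraries (12% of all sgRNAs), and in 4 above both (11.2%). A log2 fold change under -1 was seen in 14 (8.56%) and one over 1 in 3 (10.8%). Limma called 0 sgRNAs at an adjusted p under 0.05 in either direction, for the members and for all sgRNAs (0%), and at an unadjusted p under 0.05 it called 3 lower (3.65%) and 2 higher (3.21%). These unadjusted counts moved with the scaling, to 9 lower and 1 higher after centring on the non-targeting sgRNAs and to 11 lower and 1 higher at the library total. Both scalings also moved the median gene down, to -0.16 and -0.24. The counts also moved with the libraries used, at 5 lower and 1 higher without DMSO 2, 6 lower without DMSO 3 and 1 higher without AP 1. The share of all sgRNAs called under these settings is not given here, so their counts cannot be set against the shares above. The member sgRNAs ranged from -1.74 to 2.11 and the 80 non-targeting sgRNAs from -1.77 to 2.32, so no single member sgRNA lay outside the range of sgRNAs without a target.

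The comparison of Taxol with AP covered the same span of growth under drug, and used the same AP libraries. PRPF19 sgRNAs were again depleted. The PRPF19 mean on the log2 scale was 7.85, 8.23 and 8.28 in Taxol 1, 2 and 3, against 8.70 and 8.44 in AP 1 and AP 3, with every Taxol library below both AP libraries. The log2 fold change was -0.45 ± 0.22 (SE), with 8 of 10 sgRNAs lower. RRA gave an exact one-sided p of 0.000599 and an adjusted p of 0.0203, while limma on the gene mean gave an adjusted p of 0.220. Over all genes RRA called 36 depleted at an adjusted p under 0.05, and 23, 30 and 11 without Taxol 1, 2 and 3. The PRPF19 call was lost without Taxol 1 (RRA adjusted p = 0.0697), and was kept without Taxol 2 (0.0282) or Taxol 3 (0.0463). It was also lost without AP 1 or AP 3, where only 1 AP library is left. The size depended on the scaling, and it was -0.98 after centring on the non-targeting sgRNAs, which put the median gene at -0.33, and -1.19 after scaling to the library total, which put it at -0.54.

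The PRPF19 mean included a pair of sgRNAs with positive log2 fold changes. PRPF19 7484 had 4532, 2015 and 1430.4 normalized counts in Taxol 1, 2 and 3, against 539 and 775 in AP 1 and AP 3 (log2 fold change 1.86 ± 0.71 SE). PRPF19 7482 had 238, 215 and 2863 in the Taxol libraries, against 285 and 271 in the AP libraries (0.92 ± 1.03 SE), and only Taxol 3 was high. The median of the 10 sgRNA log2 fold changes was accordingly lower than their mean, at -0.86. Among the lower ones, 7483 had 157, 286 and 189 in the Taxol libraries, against 1135 and 288 in the AP libraries (-1.48 ± 0.65 SE). PRPF19 7481 had 119, 139 and 132 in the Taxol libraries, against 322 and 249 in the AP libraries (-1.12 ± 0.45 SE). In 7481, 7483, 7487, 7489 and 7490 every Taxol library lay below both AP libraries. None of these single sgRNAs passed after adjustment, with 0.737 the lowest adjusted p of any member in limma.

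SF3B1 sgRNAs averaged 8.14, 7.97 and 7.50 in Taxol 1, 2 and 3, against 8.27 and 8.22 in AP 1 and AP 3 on the log2 scale. Every Taxol library lay below both AP libraries. The log2 fold change was -0.38 ± 0.23 (SE), with 7 of 10 sgRNAs lower, and the RRA p of 0.0253 adjusted to 0.251. Without Taxol 1 the gene passed, with a log2 fold change of -0.51 and an RRA adjusted p of 0.0452. This was 1 of 15 alternatives, and SF3B1 did not pass in the other 14, where the RRA adjusted p reached 0.496. With a library left out its log2 fold change was -0.51 to -0.19. In Taxol 1 a pair of SF3B1 sgRNAs was high: 5576 had 2411, 249 and 379 normalized counts in Taxol 1, 2 and 3, against 157 and 277 in AP 1 and AP 3, and 5578 had 1747, 229.6 and 149 in the Taxol libraries, against 339 and 279 in the AP libraries. Whether this pair kept the gene from passing was not tested. SF3B1 5572, 5577, 5579 and 5580 were below both AP libraries in every Taxol library. SF3B1 5572 had 46.4, 70.8 and 38.3 there, against 88.2 and 249 in AP (-1.54 ± 0.61 SE).

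The remaining genes did not pass in the comparison of Taxol with AP. SRSF3 averaged 7.44, 7.07 and 7.20 in Taxol 1, 2 and 3, against 7.58 and 7.58 in AP 1 and AP 3, with no overlap and a log2 fold change of -0.34 ± 0.21 (SE, 8 of 10 lower), but its RRA p was 0.313. Its sgRNA 5992 had 54.0, 56.2 and 47.9 normalized counts in the Taxol libraries, against 136 and 147 in the AP libraries (-1.41 ± 0.48 SE). SRSF1 averaged 7.70, 8.34 and 7.85 in the Taxol libraries, against 8.25 and 8.09 in the AP libraries, and the groups overlapped (-0.21 ± 0.23 SE). SF3B3 ranged over 8.11 to 8.34 in the Taxol libraries and 7.91 to 8.66 in the AP libraries (-0.02 ± 0.24 SE, 4 of 10 lower). PRPF31 ranged over 7.22 to 8.19 in the Taxol libraries and 7.27 to 7.92 in the AP libraries (0.08 ± 0.28 SE), although 7 of its 10 sgRNAs were lower. The SD between the PRPF31 sgRNAs was 1.23, the 6th highest of 779 genes.

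RRA thus called 1 of the 6 genes depleted in Taxol against AP at an adjusted p under 0.05, where it called 4.62% of all genes, and 0 enriched, where it called 1.41%. At an unadjusted p under 0.05 it called 2 depleted, PRPF19 and SF3B1 (13.1% of all genes), and 0 enriched (8.34%). Limma on gene means called 0 lower at an adjusted p under 0.05, as for all genes (0%), and 0 at an unadjusted p under 0.05 (6.29%). In 3 of the 6 genes every Taxol library lay below both AP libraries (14.5% of all genes), and 5 of 6 log2 fold changes were negative (32.3%). The median was -0.28 for the 6 genes, against 0.20 over all genes, and -0.30 for the 60 sgRNAs, against 0.15 over all sgRNAs and 0.68 over the non-targeting ones. Of the 60 sgRNAs, 18 were below AP in every Taxol library (13.6%) and 3 above (12.4%), and limma at an unadjusted p under 0.05 called 7 lower (3.9%) and 1 higher (2.24%). The count of lower sgRNAs was 18 after centring and 13 at the library total, and it was 2 without Taxol 1 and 1 without Taxol 3. The count of higher ones was 0 after centring or without AP 1, and 3 without Taxol 3 or AP 3. Centring and the library total also moved the median gene down, to -0.33 and -0.54. The share of all sgRNAs called under these settings is not given here, so their counts cannot be set against the shares above.

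Setting Taxol against DMSO addressed whether loss of a gene made the resistant cells more or less sensitive to the drug. No splicing factor gene passed in either direction. RRA called 0 of 6 depleted and 0 of 6 enriched at an adjusted p under 0.05 (0.257% and 0.128% of all genes), and 0 and 0 at an unadjusted p under 0.05 (4.75% and 6.55%). Limma on gene means likewise called 0 lower and 0 higher at an unadjusted p under 0.05 (1.54% and 4.62%). In 0 genes did every Taxol library lie below every DMSO library (4.49% of all genes) and in 0 above (6.29%). Of the 6 log2 fold changes 2 were negative, against 44.9% over all genes. The median was 0.07 for the 6 genes, against 0.03 over all genes, and 0.07 for the 60 sgRNAs, against 0.04 over all sgRNAs and 0.11 over the non-targeting ones.

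PRPF19, depleted against AP in each of the other comparisons, had a mean of 7.74, 8.12 and 8.16 in Taxol 1, 2 and 3, against 7.48, 7.91 and 7.66 in DMSO 1, 2 and 3. This difference of 0.32 ± 0.22 (SE) on the log2 scale had a limma p of 0.15, which adjusted to 0.855, and 8 of 10 sgRNAs were higher. Taxol was above DMSO in all 3 pairs of equal replicate number, by 0.26, 0.21 and 0.49, as in 16.9% of all genes, and 0 of the 6 genes were lower in every pair (11.7%). With the replicate as a block the standard error was 0.20 and the limma p 0.107, which adjusted to 0.712. The difference was 0.01 at the library total, which moved the median gene from 0.03 to -0.28. For PRPF19 it was also 0.01 when each library was summarised by the median over the sgRNAs in place of their mean. The median gene was then -0.05. The median of the 10 sgRNA log2 fold changes themselves was 0.37. Of the higher sgRNAs, 7484 had 4195, 1866 and 1314 normalized counts in the Taxol libraries, against 2056, 555 and 768 in the DMSO libraries (1.18 ± 0.73 SE). SRSF3 averaged 7.33, 6.96 and 7.08 in Taxol 1, 2 and 3, against 7.42, 6.80 and 6.68 in DMSO 1, 2 and 3, a log2 fold change of 0.16 ± 0.23 (SE). SRSF1 averaged 7.59, 8.23 and 7.73 in the Taxol libraries, against 7.93, 8.06 and 7.90 in the DMSO libraries (-0.11 ± 0.22 SE). SF3B1 averaged 8.03, 7.86 and 7.38 in the Taxol libraries, against 7.78, 7.63 and 8.22 in the DMSO libraries (-0.12 ± 0.23 SE). The SF3B1 groups each had a library far from the others, Taxol 3 on the low side and DMSO 3 on the high side. SF3B3 ranged over 7.99 to 8.23 in the Taxol libraries and 7.96 to 8.27 in the DMSO libraries (0.02 ± 0.21 SE). PRPF31 ranged over 7.10 to 8.08 in the Taxol libraries and 7.36 to 7.61 in the DMSO libraries (0.12 ± 0.23 SE).

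With standard errors of 0.21 to 0.23, or 0.20 with the replicate as a block, no difference among the 6 genes could be told from 0, which does not show that the knockouts act alike with and without Taxol. The signs for PRPF31, SF3B3 and SRSF3 turned under another scaling. Centring on the non-targeting sgRNAs gave -0.05, -0.15 and -0.01 for PRPF31, SF3B3 and SRSF3 and -0.14 for the median gene, against 0.03 for the median gene in the deposited scaling.

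Over single sgRNAs in the comparison of Taxol with DMSO, 25 of 60 had a negative log2 fold change, against 47.8% of all sgRNAs. A log2 fold change under -1 was seen in 3 (6.16%) and one over 1 in 3 (8.29%). In 4 every Taxol library lay below every DMSO library (4.26%) and in 3 above (4.76%). These were SF3B1 5579, SF3B3 5590, SRSF1 7461 and PRPF31 4979 on the low side, and PRPF19 7487, PRPF31 4975 and SRSF1 7464 on the high side. SF3B1 5579 had 403, 701 and 497 normalized counts in Taxol 1, 2 and 3, against 873, 1053 and 1339 in DMSO 1, 2 and 3 (log2 fold change -1.04 ± 0.61 SE). SRSF1 7461 had 115, 138 and 117 in the Taxol libraries, against 323, 275 and 177 in the DMSO libraries (-1.02 ± 0.52 SE). Limma called 0 lower (1.55%) and 1 higher (2.01%) at an unadjusted p under 0.05, and 0 after adjustment, where the lowest adjusted p of a member was 0.967. The sgRNA called was PRPF31 4975, with 8815, 371 and 416 in the Taxol libraries, against 272, 280.1 and 196 in the DMSO libraries (2.17 ± 1.00 SE). Its size came from Taxol 1, where it had 12531 reads, the most of any splicing factor sgRNA in a library. PRPF31 4975 lay above the highest non-targeting sgRNA, at 1.60 in this comparison. In Taxol against AP it did so too, at 2.65 against 2.05. On the low side no member lay outside the non-targeting range, with -1.05 against -1.12 in Taxol against DMSO and -1.54 against -1.97 in Taxol against AP.

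Single libraries far above the others of their group were about as common among the members as over all sgRNAs between the Taxol libraries. In the table of Taxol and DMSO, 3 of 60 sgRNAs were over 10-fold apart between the Taxol libraries (5.11% of all sgRNAs), namely PRPF31 4975 and SF3B1 5578, high in Taxol 1, and PRPF19 7482, high in Taxol 3. Between the DMSO libraries, 3 of 60 were that far apart (2.13%), namely SRSF1 7466 and SRSF3 5991, high in DMSO 1, and SF3B1 5572, high in DMSO 3. In the table of DMSO and AP, where the scaling differs, PRPF31 4971 joined them as the 4th between the DMSO libraries (2.3%). In that table, 1 of 60 was over 10-fold apart between AP 1 and AP 3 (0.0509%), SF3B3 5582, with 20.3 and 228 normalized counts. SRSF1 7466 had 3379, 787 and 720 normalized counts in Taxol 1, 2 and 3, against 10640, 1410 and 582 in DMSO 1, 2 and 3, and was highest in the replicate 1 library of both groups. Of the 60 sgRNAs, 25 were highest in the same replicate number under Taxol and DMSO, against 39.8% of all sgRNAs.

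Other splicing genes and enzymes that modify splicing factors were taken from longer lists. Of 117 other splicing factors, 5 were tested: BUD31, a spliceosome component; EIF4A3, the helicase of the exon junction complex; SAP18, which binds that complex; SFPQ, a splicing and paraspeckle protein; and SNRPF, a ring protein of the snRNPs. In DMSO against AP all 5 had negative log2 fold changes (36.7% of all genes), with a median of -0.65. By RRA for depletion 0 passed after adjustment (2.05% of all genes), while 3 did at an unadjusted p under 0.05 (11.8%). SNRPF had -0.73 ± 0.23 (SE, RRA adjusted p = 0.0758), SFPQ -0.66 ± 0.27 (0.0584) and SAP18 -0.65 ± 0.25 (0.337). In Taxol against AP, 1 of the 5 passed (4.62% of all genes), SFPQ, at -0.12 ± 0.20 (SE, RRA adjusted p = 0.0203) with only 5 of its 10 sgRNAs lower. BUD31, SAP18 and SNRPF joined it at an unadjusted p under 0.05 (13.1% of all genes). In Taxol against DMSO 0 of the 5 passed for depletion or enrichment (0.257% and 0.128% of all genes). SFPQ was enriched at an unadjusted p under 0.05 (0.49 ± 0.23 SE, adjusted p = 0.563), as were 6.55% of all genes.

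Of 22 modifiers, 8 were tested, CARM1, CLNS1A, JMJD6, PRMT1, PRMT5, PRMT7, PRMT9 and WDR77. Arginine methylation of ring proteins by PRMT5 and its partner WDR77 assists snRNP assembly, and PRMT1 methylates many RNA-binding proteins. PRMT5, PRMT1 and WDR77 were depleted in DMSO against AP, with log2 fold changes of -1.17 ± 0.23, -0.68 ± 0.24 and -0.94 ± 0.23 (SE). The RRA adjusted p was 0.000284 for PRMT5, 0.0189 for PRMT1 and 0.0412 for WDR77, so 3 of the 8 passed, against 2.05% of all genes. The same 3 genes were depleted in Taxol against AP, where 4.62% of all genes were. They had -0.71 ± 0.26 for PRMT5, -0.77 ± 0.22 for PRMT1 and -0.71 ± 0.22 for WDR77 (SE, with RRA adjusted p = 0.0111, 0.0297 and 0.0386). Unlike the PRPF19 calls, these calls and that of SFPQ were not tested with a library left out. PRMT5 and WDR77 also act on targets outside splicing. Of the 8 log2 fold changes, 6 were negative in DMSO against AP (36.7% of all genes) and 4 in Taxol against AP (32.3%), with CLNS1A and JMJD6 positive in both. JMJD6, a hydroxylase of splicing factors, had 1.63 ± 0.37 (SE) in Taxol against AP, 1.08 ± 0.30 (SE) in Taxol against DMSO and 0.50 ± 0.22 (SE) in DMSO against AP. It passed by RRA in none of these after adjustment (adjusted p = 0.0805, 0.101 and 0.467), and in each at an unadjusted p under 0.05. In Taxol against DMSO, 0 of the 8 passed for depletion or enrichment after adjustment (0.257% and 0.128% of all genes). JMJD6 and PRMT5 were enriched at an unadjusted p under 0.05 (6.55% of all genes).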

How the data were processed

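Genomic DNA of 8 samples of T1-160 cells was sequenced to count sgRNAs. The deposited values of unit "other" are normalized counts, made by the authors with MAGeCK 0.5.8 (per the submitters' processing notes) and scaled within each of 3 tables. Trimming, mapping and the normalization option are not given in the sources used here. The deposited sgRNA and gene tables also hold the authors' own fold changes, scores and p-values, which were not used. A cell joins the values of a group's libraries, and these were assumed to follow the replicate numbers. AP cells hold 3 values; the first and the third were taken as replicates 1 and 3, leaving 2 value columns unused. In each of the tables, 1 header line counted as an sgRNA, at 0 throughout, was left out. The sgRNA sequences and their genome positions were not used here.

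The values were whole multiples of a step per library, which gave back the reads (97.9% to 99.99% of values whole within 0.1 read). Values were taken as log2(normalized count + 1), which understates changes of rare sgRNAs. In R 4.3.3, limma 3.58.1 (lmFit, eBayes with trend, two-sided) tested 7855 sgRNAs and the means of 779 genes with at least 3 sgRNAs, without covariates. RRA on the sgRNAs ordered by moderated statistic, with alpha 0.25, written for this work and tested on simulated data, gave exact one-sided p-values under uniform ranks. These treat the sgRNAs of a gene as independent. P-values were adjusted by the Benjamini-Hochberg method over all genes or sgRNAs, and a gene was called at an adjusted p under 0.05. Every fit stayed within a table.

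All listed genes in the tables were named in every comparison, with the value of each library where an RRA p was under 0.05 in any comparison and ranges otherwise. Single sgRNAs were named after their values were seen. The members and lists were chosen with earlier results of these data known. Alternatives covered the pseudocount, a filter, the scaling, alpha, the ranking, the median, the replicate block and each library left out. A planned edgeR test was not run; voom of limma on the recovered reads was added after seeing the data. Deviations of same-numbered Taxol and DMSO libraries from their group means correlated at 0.169, 0.131 and 0.206 across sgRNAs, so the numbers were taken to pair these samples. With AP, same-numbered libraries correlated at -0.02 to 0.04, so they did not.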

Additional observations from a re-analysis of the deposited data

How the results depend on the processing

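Tests rested on 3 libraries against 3 or 2, with 260.5 to 1499 reads per sgRNA, and those against AP on 2 libraries whose order was assumed. The planned edgeR test was not run. The number of genes depleted against AP at an adjusted p under 0.05 by RRA was 0 to 1 with a library left out, in DMSO and in Taxol, and 0 in Taxol with alpha 0.1 (PRPF19 adjusted p = 0.107). At an unadjusted p under 0.05 it was 1 to 5 with a library left out in each, 1 in Taxol with voom and 1 in DMSO with the replicate block. For enrichment at an unadjusted p under 0.05 the number was 0 to 1 with a library left out in each of the 3 comparisons, and 1 in DMSO against AP when ranked by fold change or with the replicate block. Limma on gene means called 1 lower in DMSO against AP after centring on non-targeting sgRNAs, 2 after scaling to the library total, 1 with the replicate block and 0 to 1 with a library left out, and 3 in Taxol against AP after centring. Centring and the library total also moved the median gene down, and the share of all genes that limma called under these settings is not given here. With the replicate block 1 sgRNA was called higher in DMSO against AP; the block leaves DMSO 2, which has no AP partner, out of the difference. PRPF19 kept its call against AP with the block (RRA adjusted p = 0.00149 in DMSO, 0.0257 in Taxol) and with voom (0.0245 and 0.0161), and the block changed no call of a gene in Taxol against DMSO. Counts of single sgRNAs at an unadjusted p under 0.05 ranged over all alternatives from 2 to 11 lower and 1 to 3 higher in DMSO against AP, 1 to 18 lower and 0 to 3 higher in Taxol against AP, and 0 to 2 lower and 0 to 1 higher in Taxol against DMSO.

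No log2 fold change that turned sign belonged to a called gene, and the causes were not tested. A value given as a median compares the medians over a gene's sgRNAs within each library. It is not the median of the sgRNA log2 fold changes. The median gene in Taxol against DMSO was 0.03 with gene means in the deposited scaling. It was -0.14 after centring, -0.28 at the library total and -0.05 as a median. For Taxol against AP the median gene was 0.20 in the deposited scaling, -0.33 after centring and -0.54 at the library total. In Taxol against DMSO, PRPF31 was -0.047 after centring, -0.19 at the library total, -0.21 as a median and -0.13 to 0.36 with a library left out. SF3B3 was -0.025 with the filter, -0.15 after centring, -0.29 at the library total, -0.00013 as a median and -0.063 to 0.10 with a library left out. SRSF3 was -0.015 after centring and -0.15 at the library total. With a library left out, SF3B1 was -0.26 to 0.067 and SRSF1 -0.30 to 0.015. In DMSO against AP, PRPF31 was 0.17 as a median, although the median of its 10 sgRNA log2 fold changes was -0.46. With a library left out, PRPF31 was -0.41 to 0.24 and SF3B3 -0.46 to 0.29. In Taxol against AP, PRPF31 was -0.44 after centring, -0.65 at the library total and -0.24 to 0.41 with a library left out, and SF3B3 -0.40 to 0.36. PRPF19, SF3B1, SRSF1 and SRSF3 kept a negative sign against AP under every alternative run.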
